A study of Homo sapiens with 8 samples.

Results

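The RNA of 7 oncofetal genes, LIN28A, LIN28B, IGF2BP1, IGF2BP2, IGF2BP3, HMGA2 and SALL4, was followed in a rhabdoid tumor line, G401, in which SMARCB1 could be switched on. The genes were chosen by name as members of the let-7 axis and its oncofetal partners, and make up 7 of the 69215 genes counted. All 7 had enough reads to be among the 15931 genes tested. G401 is an established kidney line without endogenous SMARCB1, which belongs to the core of SWI/SNF chromatin remodelling complexes, and every group shared this background.

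Cells carried a Tet-On cassette, in which doxycycline (Dox) turns on SMARCB1 or, in the control line, GFP. Each line was exposed for 12 h to 0.1 µg/ml Dox or to the solvent dimethylsulfoxide (DMSO), which gave the groups SMARCB1 DMSO, SMARCB1 Dox, GFP DMSO and GFP Dox with 2 libraries each. Whether either line came from a single clone is not given in the sources used here, so the transgene and the history of a line cannot be told apart in a comparison of the lines. The study's methods describe pooled plates of a condition, and nothing says whether replicates came from separate cultures, so p-values measure only the spread between these libraries.

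The libraries held 29632090 to 37597477 reads assigned to genes. Reads of SMARCB1 itself numbered 10 and 21 in the SMARCB1 line under DMSO, 30474 and 29383 under Dox, and 0 in all 4 GFP libraries. Mitochondrial transcripts took 27.9% of the counts in SMARCB1 DMSO replicate 1 and 18.9% to 23.9% in the other 7 libraries. Of the markers examined, VIM, KRT8 and KRT18 were abundant at 212 to 1310 CPM (counts relative to the TMM-adjusted library size), ENO2 did not exceed 2.22 CPM and CD44 did not exceed 0.219 CPM. Hematopoietic, endothelial, epithelial and embryonic stem cell markers stayed at or under 1.15 CPM, and the pluripotency factors POU5F1, NANOG and SOX2 had at most 11 counts in any library.

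LIN28A and LIN28B are RNA-binding proteins that hold back the maturation of let-7 microRNAs by binding the let-7 precursors, to which LIN28A recruits uridylating enzymes. Mature let-7 in turn pairs through its seed with 3′ UTRs of many growth genes, among them LIN28B, HMGA2 and the IGF2BP genes, whose proteins bind and stabilize mRNAs. These genes are active in the embryo. Most of them, though not IGF2BP2, are silent in most adult tissues and are often expressed again in tumors. LIN28B is known from Wilms tumor of the kidney. HMGA2 is an AT-hook chromatin protein, and SALL4 is a zinc finger transcription factor that recruits the NuRD co-repressor.

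The sequences that tie these genes together are the let-7 seed and its matches. The 9 mature 5p miRNAs of the let-7 and miR-98 family are printed from RefSeq records 5′ to 3′, with bases 2 to 8, the seed, in capitals.
hsa-let-7a-5p: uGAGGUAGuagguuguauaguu
hsa-let-7b-5p: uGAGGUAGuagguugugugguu
hsa-let-7c-5p: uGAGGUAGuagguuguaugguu
hsa-let-7d-5p: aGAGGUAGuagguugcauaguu
hsa-let-7e-5p: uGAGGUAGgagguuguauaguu
hsa-let-7f-5p: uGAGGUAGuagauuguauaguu
hsa-let-7g-5p: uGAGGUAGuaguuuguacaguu
hsa-let-7i-5p: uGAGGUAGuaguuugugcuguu
hsa-miR-98-5p: uGAGGUAGuaaguuguauuguu

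All 9 carried the seed GAGGUAG, which 11 mature miRNAs of the RefSeq table share. LIN28 proteins are known to bind a GGAG element in let-7 precursors. These letters were found in 9 of the 12 let-7 and miR-98 hairpins, and in 678 of all 1562 hairpins of the table (43.4%), so the letters alone are common. A hairpin with the letters and one without are shown (GRCh38.p14, seed and GGAG in capitals).
MIRLET7A1, chr9:94175957-94176036, plus strand: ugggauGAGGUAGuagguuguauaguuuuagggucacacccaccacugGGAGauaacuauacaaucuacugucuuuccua
MIRLET7B, chr22:46113686-46113768, plus strand: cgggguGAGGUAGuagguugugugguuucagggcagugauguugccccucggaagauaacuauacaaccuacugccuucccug

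Each of the 7 genes held at least 1 complete 8-base match to let-7 (CTACCTCA, the complement of the seed followed by A) in the 3′ UTR of its canonical GENCODE transcript, where 733 of 19550 annotated 3′ UTRs (3.75%) did. Since let-7 pairing was a reason to choose the genes, this is a description and no result. The 8-base match nearest to the stop codon is printed for each gene at the end of 22 bases of the transcribed strand (GRCh38, match in capitals).
LIN28A, chr1:26427349-26427370, plus strand: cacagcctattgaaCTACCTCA
LIN28B, chr6:105078813-105078834, plus strand: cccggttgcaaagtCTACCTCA
IGF2BP1, chr17:49051062-49051083, plus strand: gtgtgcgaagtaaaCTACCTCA
IGF2BP2, chr3:185644220-185644241, minus strand: acacacagaagaagCTACCTCA
IGF2BP3, chr7:23311795-23311816, minus strand: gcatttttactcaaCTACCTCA
HMGA2, chr12:65963299-65963320, plus strand: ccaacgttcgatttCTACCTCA
SALL4, chr20:51782923-51782944, minus strand: aagctttaatttatCTACCTCA

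Matches to bases 2 to 8 of the seed (CTACCTC, the 8-base matches included) numbered 4 in LIN28B, IGF2BP1 and HMGA2 and 1 in the other 4 genes. Only 12 of the 19550 3′ UTRs (0.0614%) held 4 or more, and TRIM71, another regulator of the let-7 pathway, held the most with 6. The first match lay 21 bases after the stop codon in HMGA2 and 44 bases after it in LIN28B.

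**Figure D1:**
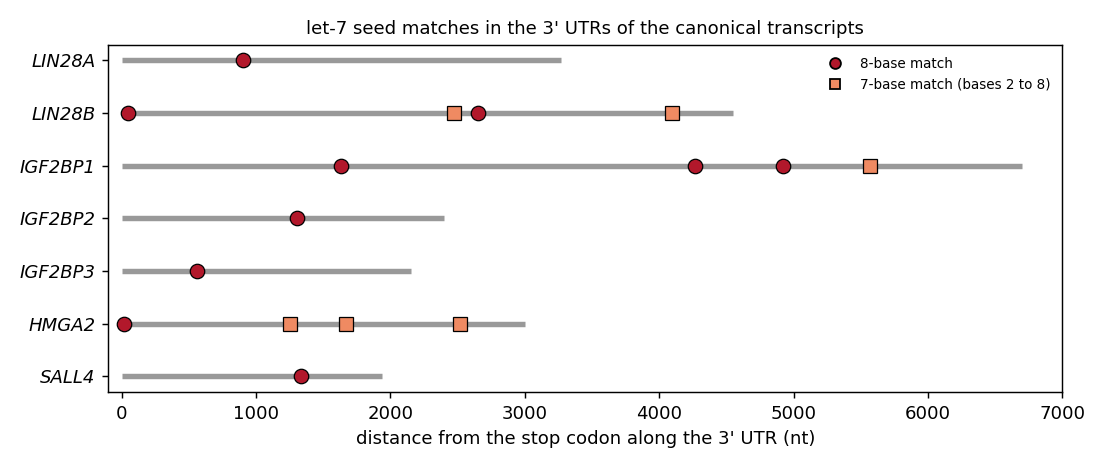
Position of each let-7 seed match (symbols; circles, 8-base; squares, 7-base) along the 3′ UTR (grey bars) of the 7 genes, as the distance from the stop codon in nucleotides. LIN28B, IGF2BP1 and HMGA2 hold 4 matches each and the other genes 1.

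Expression levels differed widely among the genes. Per exon length (RPKM, CPM divided by the kilobases of all annotated exons), the mean over the 8 libraries was 147 for HMGA2 (range 131 to 156), which placed it above 99.2% of the 12412 protein-coding genes tested. LIN28A followed at 78.5 RPKM (67.5 to 94.7) and IGF2BP1 at 54.2 RPKM (49.5 to 62). These genes were separated from each other and from IGF2BP3 in every library.

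IGF2BP3 reached 31 RPKM (21.8 to 42), and SALL4 and IGF2BP2 both 21.2 RPKM (18.2 to 24.2 and 16.1 to 29.2). The ranges of IGF2BP3 and SALL4 overlapped, as did those of SALL4 and IGF2BP2. LIN28B lay far below at 0.575 RPKM (0.235 to 1.06), above 17.5% of the protein-coding genes, with 43 to 191 reads in a library. With the length of the canonical transcript in place of all exons, a setting chosen after seeing the data, IGF2BP3 rose to 62 RPKM beside IGF2BP1 at 59.4 RPKM and HMGA2 to 536 RPKM, so the order of IGF2BP1 and IGF2BP3 rests on the length used.

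After 12 h of Dox in the SMARCB1 line, LIN28A and IGF2BP2 were modestly higher than with DMSO, and no change of the other 5 genes passed the test. In all, 2 of 7 were called in edgeR at an adjusted p under 0.05, both higher, beside 14% of all genes tested (8.33% higher and 5.69% lower). The median log2 fold change of the 7 was -0.01, and that of all genes was -0.0038. The groups did not overlap for 4 of the 7, which compares with 51.2% of all genes.

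LIN28A, which blocks let-7 maturation in the cytoplasm (chr1:26410817-26429728, plus strand), stood at 287 and 311 CPM in SMARCB1 DMSO against 377 and 370 in SMARCB1 Dox, while the GFP line had 303 and 273 with DMSO and 308 and 268 with Dox. Both SMARCB1 Dox libraries lay above the other 6. The rise in the SMARCB1 line was 1.25-fold (log2 0.32, SE 0.0868, edgeR adjusted p = 0.0156). This call was lost without SMARCB1 DMSO replicate 1 (log2 0.26, edgeR adjusted p = 0.123), the library with the highest mitochondrial share, and without SMARCB1 Dox replicate 1 (log2 0.31, edgeR adjusted p = 0.0799). The part of the mitochondrial share in the change was not tested. In RNA of whole cultures, a changed share of expressing cells and a changed amount of RNA per cell cannot be told apart.

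LIN28B, its paralog that also blocks let-7 maturation (chr6:104936616-105083332, plus strand), had 6.31 and 5.79 CPM in SMARCB1 DMSO against 4.33 and 4.46 in SMARCB1 Dox. The GFP line had 1.51 and 1.59 with DMSO and 1.4 and 1.97 with Dox. The SMARCB1 Dox libraries were below both SMARCB1 DMSO libraries and above all 4 GFP libraries. The Dox difference in the SMARCB1 line, 0.727 of the DMSO level (log2 -0.46, 95% interval -0.85 to -0.07), had an edgeR adjusted p of 0.11 and was not called. These groups held 154 to 191 reads of the gene per library.

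The ratio of LIN28A to LIN28B in RPKM was 67.9 and 80.3 in SMARCB1 DMSO against 130 and 124 in SMARCB1 Dox, while the GFP line had 300 and 257 with DMSO and 329 and 204 with Dox. LIN28A supplied 98.5% to 99.7% of the summed LIN28 RPKM of a library. The SMARCB1 DMSO libraries had the lowest ratios, and the SMARCB1 groups overlapped neither each other nor the GFP groups.

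Among the IGF2BP genes, whose proteins bind, transport and stabilize mRNAs and read N6-methyladenosine (m6A), IGF2BP2 was the one called. IGF2BP2 (chr3:185643130-185825042, minus strand) stood at 118 and 123 CPM in SMARCB1 DMSO against 156 and 153 in SMARCB1 Dox, while the GFP line had 87.1 and 87.7 with DMSO and 85.6 and 92.9 with Dox. The 4 SMARCB1 libraries were all above the 4 GFP libraries, with SMARCB1 Dox on top. The rise with Dox in the SMARCB1 line was 1.28-fold (log2 0.36, SE 0.0777, edgeR adjusted p = 0.00309) and was called in all 15 alternative analyses.

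IGF2BP1 (chr17:48997385-49056145, plus strand) stood at 477 and 517 CPM in SMARCB1 DMSO against 515 and 597 in SMARCB1 Dox, while the GFP line had 497 and 540 with DMSO and 498 and 539 with Dox. The groups overlapped, and the Dox difference in the SMARCB1 line (log2 0.16, 95% interval -0.02 to 0.35) was not called (edgeR adjusted p = 0.268).

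IGF2BP3 (chr7:23310209-23470491, minus strand) had 336 and 350 CPM in SMARCB1 DMSO against 309 and 358 in SMARCB1 Dox, while the GFP line had 193 and 186 with DMSO and 195 and 191 with Dox. The SMARCB1 and GFP libraries formed separate levels, whereas Dox left overlapping groups in the SMARCB1 line (log2 -0.04, 95% interval -0.21 to 0.13, edgeR adjusted p = 0.817). Of its exon bases, 17.8% overlap MALSU1 on the opposite strand. MALSU1 had 1616 to 2344 reads, and the strand setting used for counting is not stated.

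HMGA2, the chromatin protein and a classical let-7 target (chr12:65824460-65966291, plus strand), stood at 2180 and 2250 CPM in SMARCB1 DMSO against 1980 and 2160 in SMARCB1 Dox, while the GFP line had 2300 and 2220 with DMSO and 2360 and 2210 with Dox. Both SMARCB1 Dox libraries were the lowest of the 8, but the difference from SMARCB1 DMSO was small (log2 -0.10, 95% interval -0.27 to 0.08) and not called (edgeR adjusted p = 0.527).

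SALL4, the zinc finger factor of embryonic cells (chr20:51782331-51802521, minus strand), had 105 and 120 CPM in SMARCB1 DMSO against 105 and 118 in SMARCB1 Dox, while the GFP line had 130 and 136 with DMSO and 127 and 140 with Dox. All 4 SMARCB1 libraries lay below the GFP libraries. Dox made no detectable difference in the SMARCB1 line (log2 -0.01, 95% interval -0.19 to 0.17, edgeR adjusted p = 0.964).

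**Figure D2:**
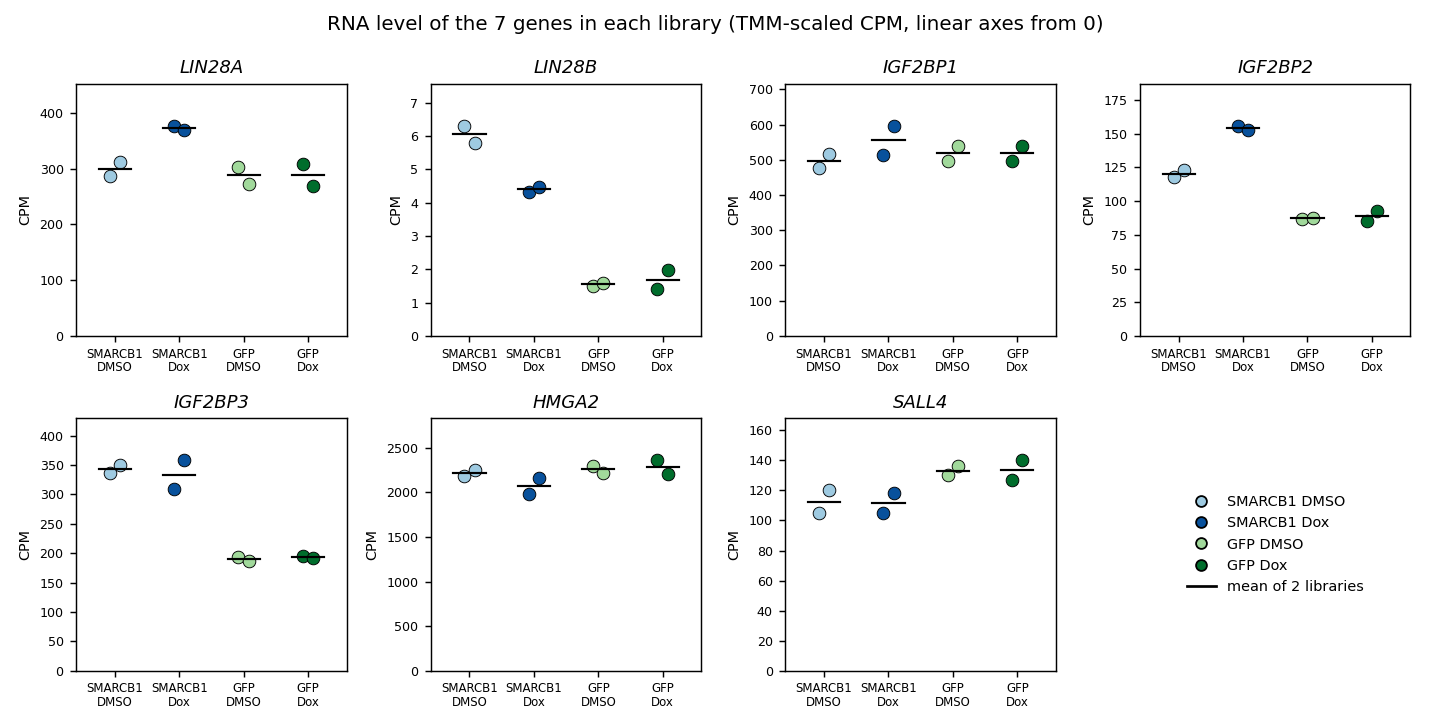
RNA level of the 7 genes in CPM (linear axes from 0) in each of the 8 libraries (points) by group, with the mean of 2 libraries as a line. LIN28A and IGF2BP2 are highest in SMARCB1 Dox, and LIN28B and IGF2BP3 are higher in both SMARCB1 groups than in the GFP groups.

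In the GFP line, no Dox difference of the 7 genes passed the test. Their log2 fold changes ran from -0.0021 for LIN28A to 0.13 for LIN28B, the groups did not overlap for 0 of the 7 (26.8% of all genes), and every edgeR adjusted p was 1. Of all genes tested, 0% were called by edgeR in this comparison, 266 had an unadjusted p under 0.05, and DESeq2 called 0. The 95% intervals of the 6 genes other than LIN28B stayed within -0.19 and 0.20, while that of LIN28B ran from -0.36 to 0.62.

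Tested directly, the Dox effects of the SMARCB1 and GFP lines differed for 0 of the 7 genes in edgeR and for 0 in DESeq2, beside 4.71% of all genes in edgeR. LIN28A (log2 0.32, 95% interval 0.07 to 0.58, edgeR adjusted p = 0.168) and IGF2BP2 (log2 0.33, 95% interval 0.10 to 0.56, edgeR adjusted p = 0.108) had unadjusted p-values of 0.016 and 0.00764. LIN28B had the largest difference of the 7 (log2 -0.59) with the widest interval (-1.21 to 0.04). The rises of LIN28A and IGF2BP2 are therefore called against their own DMSO controls but not against the Dox effect of the GFP line.

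**Figure D3:**
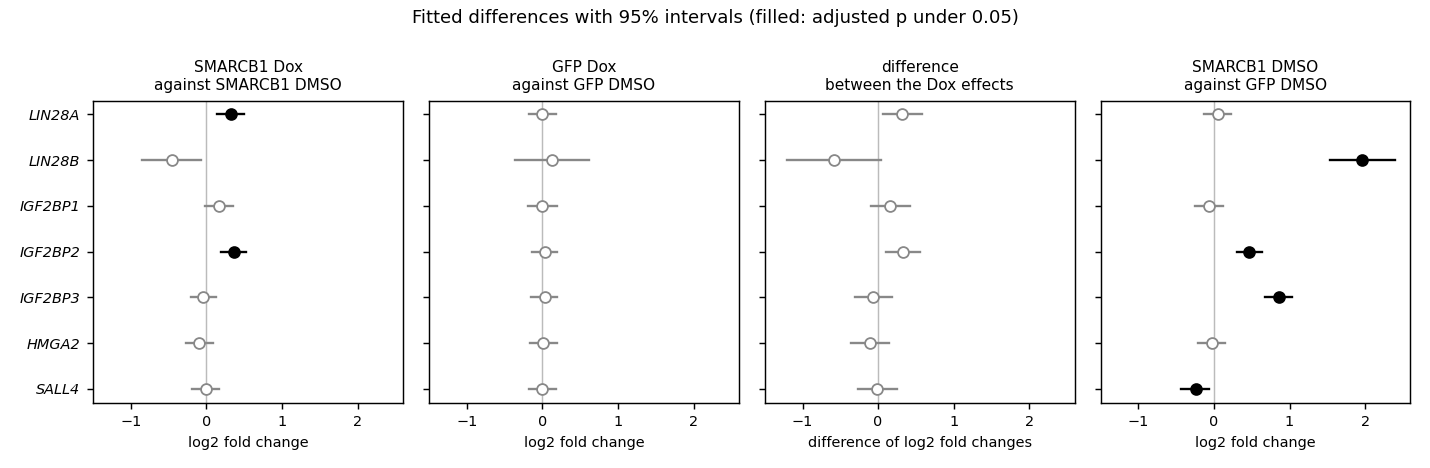
Fitted log2 differences (points) with 95% intervals (lines) of the 7 genes in the 4 comparisons, filled where the edgeR adjusted p was under 0.05. LIN28A and IGF2BP2 are filled for Dox in the SMARCB1 line, none for GFP Dox or the difference, and LIN28B, IGF2BP2, IGF2BP3 and SALL4 for the DMSO groups.

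The largest differences of the 7 genes lay between the lines without Dox. LIN28B, IGF2BP3 and IGF2BP2 were higher in the SMARCB1 line than in the GFP line and SALL4 was lower, so 4 of 7 genes were called, beside 32% of all genes tested (16.3% higher and 15.7% lower). The median log2 difference of the 7 was 0.05, and that of all genes was 0.01. The groups did not overlap for 4 of the 7, beside 64.7% of all genes. The SMARCB1 DMSO libraries also serve as the control of the Dox effect, so for any gene the values of both comparisons are tied.

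LIN28B showed the largest difference, with 6.05 ± 0.367 CPM (SD, n = 2) in SMARCB1 DMSO and 1.55 ± 0.0559 CPM in GFP DMSO, 3.89-fold (log2 1.96, SE 0.209, edgeR adjusted p = 1.36e-07). IGF2BP3 was 1.81-fold higher, at 343 ± 10.2 against 190 ± 4.59 CPM (log2 0.86, SE 0.084, edgeR adjusted p = 3.87e-08). IGF2BP2 was 1.38-fold higher, at 120 ± 3.09 against 87.4 ± 0.425 CPM (log2 0.46, SE 0.0784, edgeR adjusted p = 7.85e-05). These 3 calls held in all 15 alternative analyses.

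SALL4 was lower, at 112 ± 10.5 CPM in SMARCB1 DMSO against 133 ± 3.74 CPM in GFP DMSO (log2 -0.24, SE 0.0879, edgeR adjusted p = 0.0377). This call was lost without SMARCB1 DMSO replicate 1 (log2 -0.15, edgeR adjusted p = 0.301), without GFP DMSO replicate 1 (log2 -0.27, edgeR adjusted p = 0.0801) and without GFP DMSO replicate 2 (log2 -0.22, edgeR adjusted p = 0.186). LIN28A (log2 0.05, 95% interval -0.13 to 0.23), IGF2BP1 (log2 -0.06, -0.25 to 0.12) and HMGA2 (log2 -0.03, -0.21 to 0.15) were not called.

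The mix of the IGF2BP family differed accordingly. IGF2BP1 made up 44.6% to 46.7% of the summed IGF2BP RPKM in the 4 SMARCB1 libraries and 57% to 59.4% in the 4 GFP libraries. IGF2BP3 made up 34.9% to 35.4% in SMARCB1 DMSO, 30.4% to 31.6% in SMARCB1 Dox and 23.2% to 25.3% in the GFP libraries. IGF2BP2 took 19.5% to 20% in SMARCB1 DMSO, 21.6% to 24.6% in SMARCB1 Dox and 17.5% to 18.2% in the GFP libraries. The family sum was 111 to 133 RPKM in the SMARCB1 line and 90.5 to 95.8 RPKM in the GFP line, without overlap. These shares and sums use the length of all annotated exons. With the canonical transcript length, the mean over the 8 libraries was 62 RPKM for IGF2BP3 and 59.4 RPKM for IGF2BP1. Which gene held the largest share therefore rests on the length used.

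**Figure D4:**
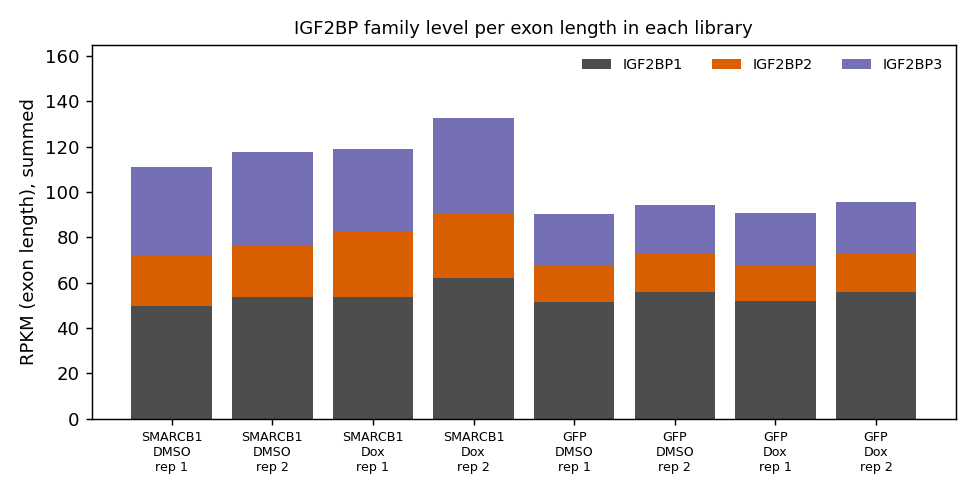
Summed level of IGF2BP1, IGF2BP2 and IGF2BP3 in RPKM over all annotated exons (stacked bars from 0) in each of the 8 libraries. The thickness of each layer rests on this length. The IGF2BP1 layer is similar in all libraries, and the IGF2BP2 and IGF2BP3 layers are thicker in the SMARCB1 line, whose sums are 111 to 133 RPKM against 90.5 to 95.8 RPKM.

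Of 22 genes for let-7 processing, silencing and the LIN28 pathway, all tested, TRIM71 was higher with Dox in the SMARCB1 line and ZFP36L1 was lower (median log2 0.03 over the list), beside 8.33% of all genes higher and 5.69% lower. ZFP36L1, an AU-rich element binding protein, fell by 0.51 on the log2 scale, from 658 ± 19.4 to 461 ± 14 CPM (edgeR adjusted p = 1.65e-04). TRIM71, a ubiquitin ligase and let-7 target, rose from 126 ± 10.1 to 160 ± 13 CPM (log2 0.35, edgeR adjusted p = 0.00772), a call lost without SMARCB1 DMSO replicate 1 (log2 0.27, edgeR adjusted p = 0.1) and without SMARCB1 Dox replicate 2 (log2 0.26, edgeR adjusted p = 0.0942). None of the uridylating enzymes or of the nucleases that act with LIN28 was called for Dox.

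Between the DMSO groups, 0 of these 22 genes were higher and 7 lower in the SMARCB1 line (median log2 -0.10), beside 16.3% and 15.7% of all genes, and 4 were called without GFP DMSO replicate 2. The silencing factors TNRC6B (176 ± 15.9 against 270 ± 11.5 CPM, log2 -0.61, edgeR adjusted p = 1.73e-05), AGO3 (log2 -0.39, edgeR adjusted p = 7.24e-04) and AGO1 (log2 -0.35, edgeR adjusted p = 0.00239) were among the lower genes, and so was ZFP36L1 (log2 -0.39, edgeR adjusted p = 8.64e-04).

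Mature let-7 was not measured in these libraries, and the 12 let-7 and miR-98 hairpin genes had 0 counts in every library. Of the host transcripts, 6 were tested, and of all genes 14% were called with Dox in the SMARCB1 line. MIRLET7IHG, the host of let-7i, fell from 7.88 ± 0.954 to 4.26 ± 0.777 CPM with Dox in the SMARCB1 line (log2 -0.89, SE 0.18, edgeR adjusted p = 0.00157), and no other host was called (median log2 -0.21), although 2 were called without SMARCB1 DMSO replicate 2. Its level was 5.59 ± 0.827 CPM in GFP DMSO and 5.35 ± 0.817 CPM in GFP Dox, and the difference between the Dox effects was not called. Between the DMSO groups 1 host was higher and 1 lower, beside 32% of all genes called, and 1 in all was called in DESeq2. The higher host was MIRLET7IHG (log2 0.49). Its call was lost in DESeq2 (DESeq2 adjusted p = 0.0699) and with library totals (log2 0.38, edgeR adjusted p = 0.0991). The same held without SMARCB1 DMSO replicate 2 (log2 0.36) and without GFP DMSO replicate 1 (log2 0.35).

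Other let-7 target mRNAs moved in both directions with Dox in the SMARCB1 line. Of 28 tested, 5 were higher and 3 lower (median log2 -0.07), beside 14% of all genes called. In all, 5 were called without SMARCB1 Dox replicate 1, without GFP Dox replicate 2 or with the 4 SMARCB1 libraries alone. TGFBR1, a TGF-beta receptor, rose 2.41-fold from 10.8 ± 0.109 to 26 ± 2.83 CPM (log2 1.27, edgeR adjusted p = 1.33e-07). CDK6, a cell cycle kinase, rose 1.81-fold from 177 ± 31.8 to 320 ± 59.4 CPM (log2 0.86, edgeR adjusted p = 1.82e-05). The transcription factor MYC fell by 0.46 on the log2 scale, from 142 ± 7.7 to 103 ± 9.29 CPM (edgeR adjusted p = 6.31e-04).

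Between the DMSO groups, 6 let-7 targets were higher in the SMARCB1 line and 7 lower (median log2 -0.07), beside 32% of all genes called. The cyclin CCND2 stood at 30.8 ± 2.72 CPM against 0.77 ± 0.168 CPM, 40.2-fold higher (edgeR adjusted p = 3.81e-15), and THBS1, a matrix glycoprotein, was 4.34-fold higher (edgeR adjusted p = 1.54e-13). CDK6 (log2 -1.48, edgeR adjusted p = 8.54e-10) and TGFBR1 (log2 -0.99, edgeR adjusted p = 4.81e-07) were lower before induction. MYCN had 0 counts in every library.

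Of 22 partners of the IGF2BP proteins and genes of the m6A machinery tested, 1 was called with Dox in the SMARCB1 line (median log2 -0.01), beside 14% of all genes. This was WTAP, a subunit of the m6A writer complex (log2 -0.29, edgeR adjusted p = 0.0181). None was called with library totals or with the SMARCB1 libraries alone. The call of WTAP was also lost without SMARCB1 DMSO replicate 1 (log2 -0.24), SMARCB1 Dox replicate 1 (log2 -0.27) or SMARCB1 Dox replicate 2 (log2 -0.30). Between the lines 2 were higher and 6 lower (median log2 -0.15), beside 32% of all genes called. In all, 3 or 4 were called without SMARCB1 DMSO replicate 1 or without either GFP DMSO replicate.

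Of 16 client mRNAs of the IGF2BP proteins, 12 were tested, and with Dox in the SMARCB1 line 1 was higher and 1 lower, MYC (median log2 0.06), beside 14% of all genes called. FSCN1, which bundles actin, rose from 108 ± 0.289 to 181 ± 32 CPM (log2 0.74, SE 0.0965, edgeR adjusted p = 1.4e-05). The client CD44 was near 0 as given above. In all, 4 clients were called without SMARCB1 DMSO replicate 2 or with library totals. Between the lines, the Hedgehog effector GLI1 was lower in SMARCB1 DMSO (1.67 ± 0.424 against 7.6 ± 0.568 CPM), and the median log2 difference of the 12 was -0.05.

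Most of the pluripotency network that SALL4 belongs to was silent, since 4 of 20 listed SALL family and pluripotency genes were tested and 9 had 0 counts in every library. With Dox in the SMARCB1 line 2 were higher and 1 lower (median log2 0.31), beside 14% of all genes called. DNMT3B, a de novo DNA methyltransferase, rose from 34.3 ± 1.93 to 55.5 ± 4.38 CPM (log2 0.69, edgeR adjusted p = 1.13e-05), and KLF4 fell from 9.05 ± 1.06 to 4.74 ± 0.6 CPM (log2 -0.93, edgeR adjusted p = 0.00105). Between the lines 1 was higher and 3 lower, beside 32% of all genes called. Of the lower genes, ZSCAN10 had 2 and 6 reads in SMARCB1 DMSO against 34 and 40 in GFP DMSO. It passed the expression filter only through the GFP line, so its call is no support for a difference. DNMT3B stood at 34.3 ± 1.93 against 86 ± 1.61 CPM (log2 -1.33, edgeR adjusted p = 5.38e-11). The higher gene was KLF4 (log2 0.58). Its call was lost without SMARCB1 DMSO replicate 2 (log2 0.45) and without GFP DMSO replicate 2 (log2 0.37).

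Of 18 cofactors of SALL4, namely NuRD subunits and the CRBN ubiquitin ligase through which thalidomide degrades it, 2 were higher with Dox in the SMARCB1 line and 0 lower (median log2 0.07), beside 14% of all genes called. These were MBD3 (log2 0.28) and GATAD2A (log2 0.27). Both calls were lost without SMARCB1 DMSO replicate 1, without SMARCB1 Dox replicate 1 and with the SMARCB1 libraries alone, and that of MBD3 without SMARCB1 DMSO replicate 2. Between the lines, 2 were higher and 4 lower (median log2 -0.01), with CUL4B, the scaffold of the ligase, at 163 ± 8.51 against 102 ± 1.49 CPM (log2 0.67, edgeR adjusted p = 8.72e-07). In all, 2 or 3 were called here without SMARCB1 DMSO replicate 1 or either GFP DMSO replicate, beside 32% of all genes called with every library.

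Among 16 other oncofetal and HMG genes tested, 3 were higher with Dox in the SMARCB1 line and 0 lower (median log2 0.17), beside 14% of all genes called. In all, 5 were called without SMARCB1 DMSO replicate 2, and 6 with library totals or without the filter. MSI1, an RNA-binding protein of progenitor cells, rose 1.67-fold from 31.6 ± 0.704 to 52.8 ± 1.82 CPM (log2 0.74, edgeR adjusted p = 1.97e-06). Between the lines 7 were higher and 4 lower (median log2 0.22), beside 16.3% and 15.7% of all genes. The call of RBM38, a lower gene (log2 -0.23), was lost without the filter (log2 -0.24, edgeR adjusted p = 0.0628). It was also lost with the replicate block and GC correction (log2 -0.07, edgeR adjusted p = 0.405). Leaving out any SMARCB1 DMSO, GFP DMSO or GFP Dox library lost it as well (log2 -0.26 to -0.21). MSI2 was 2.02-fold higher in SMARCB1 DMSO, at 220 ± 16.2 against 109 ± 0.956 CPM (edgeR adjusted p = 1.22e-09), whereas its paralog MSI1 was lower, at 31.6 ± 0.704 against 91.8 ± 0.759 CPM (edgeR adjusted p = 1.03e-12). TPBG had 12 and 18 reads in SMARCB1 DMSO and 0 in both GFP DMSO libraries, and DLK1 had 1 and 2 against 42 and 34 reads. TPBG and DLK1 are among the called genes but passed the expression filter only through the line where each was high. Their calls are therefore no support for a difference between the lines. In the GFP line, Dox changed 0 genes of every list.

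**Figure D5:**
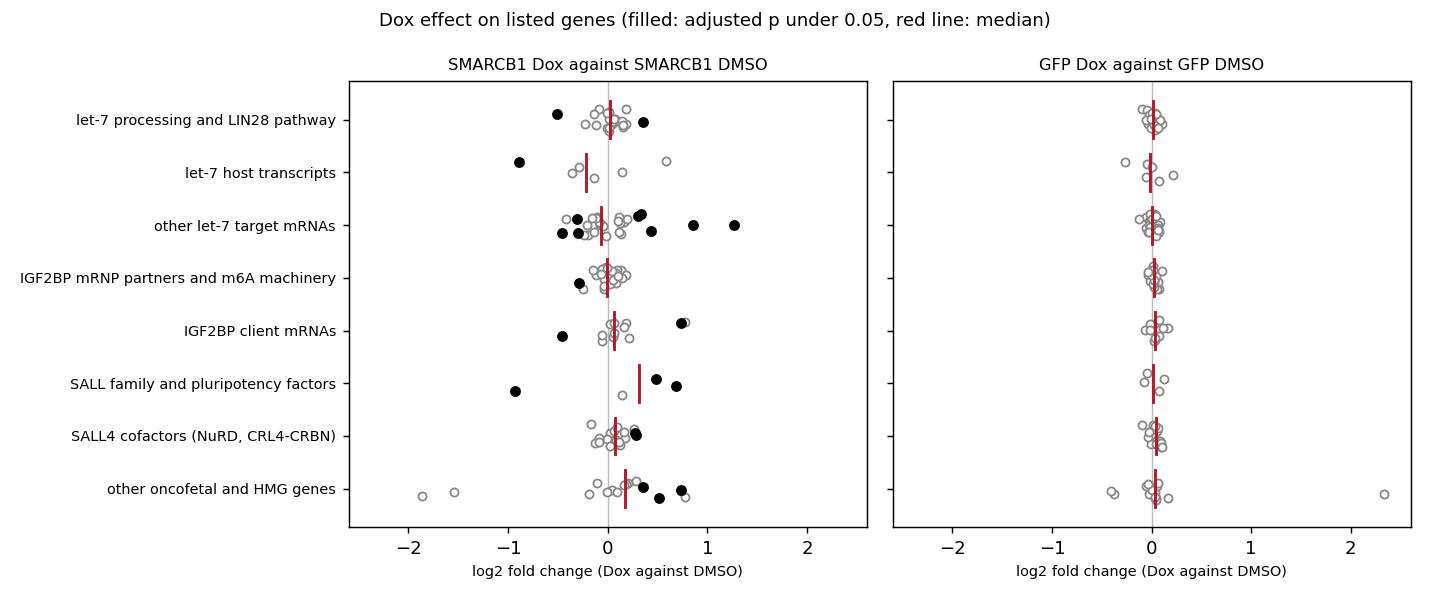
Log2 fold change with Dox of each tested gene (points, filled where the edgeR adjusted p was under 0.05; red lines, list medians) in 8 gene lists, for the SMARCB1 line (left) and the GFP line (right). The filled genes, up to 1.27 for TGFBR1, are all in the SMARCB1 line, and the open points beyond 1 in size are TERT, DLK1 and TPBG, with at most 53 reads in a library.

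The genes most like a member in pattern were sought by Pearson correlation of log2 CPM over the 8 libraries among 12405 protein-coding genes, for the 3 members that varied most. They are descriptions, since the 8 libraries fall into 2 lines and 4 groups that every gene shares. LIN28B was most like SCHIP1 (r = 0.996), NFE2L1 (0.993) and DNAJC1 (0.992), with 416 genes above 0.95. IGF2BP3 was most like CADM2 (0.998), ARHGAP31 (0.998) and EFNA5 (0.997), with 588 genes above 0.95. IGF2BP2 was most like PKP2 (0.996), RIN3 (0.995) and DGKH (0.994), with 428 genes above 0.95. NFE2L1, for example, had mean log2 CPM of 7.66, 7.51, 6.80 and 6.83 in SMARCB1 DMSO, SMARCB1 Dox, GFP DMSO and GFP Dox. High correlations were thus common for each of these patterns.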

How the data were processed

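Total RNA of 8 G401 libraries was analysed. The authors deposited unnormalized read counts for each gene, from STAR alignments counted by HTSeq over exons in intersection-strict mode with GENCODE v42 (build hg38 per the labels); versions and strand option are not given in the sources used here. The labels name a ribosome profiling kit and its library kit, and the study's methods a directional RNA kit, so the chemistry is uncertain. The 5 entries naming no gene (27% to 29.3% of reads) were left out. Symbols, lengths and 3′ UTRs came from GENCODE v44 on GRCh38, which matched 62625 of 69215 identifiers; MATR3 and MIRLET7DHG matched no single one.

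Counts were tested with edgeR 4.0.16 (R 4.3.3; filterByExpr, TMM, quasi-likelihood, all 8 libraries in 1 fit, Benjamini-Hochberg within each of 4 comparisons, called under 0.05), and the steps were tested on simulated data. Alternatives were DESeq2 1.42.0, other scalings, no filter, fewer libraries, each library left out, and a replicate block without and with GC correction. The 7 genes and the gene lists were chosen with earlier results of these data known. From each list, up to 4 called genes per direction with the largest change could be named, and for the 3 most variable members the 3 most correlated genes. Replicates of a group differed by 7.4 to 20 times the sampling variance, so none was a duplicate. The result of 1 listed gene is not reported here.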

Additional observations from a re-analysis of the deposited data

Results flagged for a closer look

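Between the lines, the response to Dox differed for 9 genes of the 8 lists in the edgeR test of the difference itself. It differed for 0 of the 7 oncofetal genes, beside 4.71% of all genes. In the order given above, the lists held 22, 6, 28, 22, 12, 4, 18 and 16 tested genes, with some genes shared between lists. The difference on the log2 scale was 1.19 for TGFBR1 (SE 0.156, edgeR adjusted p = 6.4e-05), 0.85 for CDK6 (SE 0.16, edgeR adjusted p = 0.00267) and 0.76 for FSCN1 (SE 0.136, edgeR adjusted p = 0.00163). It was 0.61 for DNMT3B (SE 0.122, edgeR adjusted p = 0.00432) and 0.74 for MSI1 (SE 0.113, edgeR adjusted p = 3.79e-04). These 5 calls held with each of the 8 libraries left out in turn. MYC differed by -0.54 (edgeR adjusted p = 0.00898), a call lost without GFP DMSO replicate 1 (-0.49, edgeR adjusted p = 0.0605) and without GFP Dox replicate 2 (-0.50, edgeR adjusted p = 0.0625). ZFP36L1 differed by -0.51 (edgeR adjusted p = 0.0119), a call lost without GFP DMSO replicate 2 (-0.44, edgeR adjusted p = 0.116) and without GFP Dox replicate 1 (-0.46, edgeR adjusted p = 0.0894). ARID3A, a DNA-binding protein, differed by 0.41 (edgeR adjusted p = 0.0377), which was not called without SMARCB1 DMSO replicate 1, SMARCB1 Dox replicate 2 or any of the 4 GFP libraries (0.35 to 0.45). RBM38, an RNA-binding protein, differed by 0.48 (edgeR adjusted p = 0.0221), which was not called without SMARCB1 DMSO replicate 2, SMARCB1 Dox replicate 1 or any of the 4 GFP libraries (0.38 to 0.50).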

How the results depend on the processing

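Of 413 log2 fold changes of the 7 genes under 15 alternatives, 369 kept their sign and side of the threshold, 5 lost and 2 gained a call, and 37 changed sign, all of them uncalled and small. In the Dox effect of the SMARCB1 line, 1 to 2 of the 7 genes were called with a library left out. With the replicate number as a block, 1 gene, IGF2BP2, was called for the difference between the Dox effects (log2 0.33, edgeR adjusted p = 0.0271), and 1 with the block and a GC correction (log2 0.30, edgeR adjusted p = 0.0298), where 1282 and 1303 of all genes were called in place of 750. Over all genes, same-numbered replicates deviated together with r of 0.03 to 0.15 between groups, so the main fit did not take the numbers as pairs. Such an r does not exclude a shared replicate effect on single genes. Replicate 2 lay above replicate 1 in every group for IGF2BP1 and SALL4, but not for the other genes of the 7. Per canonical transcript the mean RPKM was 59.4 for IGF2BP1, 62 for IGF2BP3, 536 for HMGA2 and 23.5 for SALL4.

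Scaling to library totals moved the median of all genes by up to -0.10 (the DMSO groups), with 1986 higher and 497 lower calls for Dox in the SMARCB1 line in place of 1327 and 907, 670 and 159 for the difference in place of 489 and 261, and 1732 and 3658 for the DMSO groups in place of 2600 and 2505. It gave IGF2BP3 0.05 and SALL4 0.08 for Dox in the SMARCB1 line, LIN28A 0.01 and IGF2BP1 0.01 for GFP, IGF2BP3 0.01 and SALL4 0.06 for the difference, and LIN28A -0.06 for the DMSO groups. In the GFP line, LIN28A was 2.1e-04 and IGF2BP1 0.0024 without the filter, SALL4 -0.0017 with the libraries of the comparison alone, and IGF2BP1 6.7e-05 with the block. With block and GC, IGF2BP3 was 0.01 (SMARCB1 Dox), LIN28A 0.0028 and IGF2BP1 0.01 (GFP) and LIN28A -0.01 (DMSO groups).

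With each library left out, log2 values crossed 0 for IGF2BP3 (-0.15 to 0.06) and SALL4 (-0.10 to 0.09) in the SMARCB1 line, for IGF2BP3 (-0.18 to 0.04) and SALL4 (-0.11 to 0.09) in the difference, and for LIN28A (-0.03 to 0.13) in the DMSO groups. In the GFP line they did so for LIN28A (-0.11 to 0.09), LIN28B (-0.15 to 0.34), IGF2BP1 (-0.06 to 0.06), IGF2BP2 (-0.03 to 0.08), IGF2BP3 (-0.0019 to 0.05), HMGA2 (-0.04 to 0.06) and SALL4 (-0.07 to 0.07). Genes called in all fell to 1462 without SMARCB1 DMSO replicate 1 and 1284 without SMARCB1 Dox replicate 1 (Dox in the SMARCB1 line, 2234), and ranged from 390 to 805 for the difference. Of 1026 values of list genes, 920 kept sign and call, 106 lost the call and 0 changed sign. With block and GC, 14 other let-7 targets were called for Dox in the SMARCB1 line in place of 8, and 5 other oncofetal genes in place of 3 (7 with the block alone). MBD3 was then 0.09 (edgeR adjusted p = 0.382) and GATAD2A 0.14 (edgeR adjusted p = 0.0912), and the differences of ARID3A and RBM38 were 0.25 (edgeR adjusted p = 0.0841) and 0.27 (edgeR adjusted p = 0.0673). With the block, 2 let-7 hosts, 2 IGF2BP partners and 4 clients were called in place of 1, 1 and 2. For the DMSO groups, block and GC gave 15 partners in place of 8 and 10 cofactors in place of 6, the block gave 4 hosts in place of 2, and both gave 6 clients in place of 3, as did library totals. The causes were not tested.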

Other observations

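Genes outside the 7 were grouped by let-7 matches in their 3′ UTRs, a grouping made after seeing the data and given without a test. With Dox in the SMARCB1 line, 62 of 542 tested genes with an 8-base match were higher and 44 lower (19.6% called, median log2 -0.02), beside 16.5% of the 12377 genes with an annotated 3′ UTR (median log2 0.01), and of 173 genes with at least 2 matches 21 were higher and 10 lower (median log2 0.01). Between the DMSO groups, 88 of the 542 were higher in the SMARCB1 line and 118 lower (median log2 -0.03), and 25 of the 173 were higher and 52 lower (median log2 -0.11), beside 2272 and 2228 of the 12377. Genes with 2 matches have long 3′ UTRs, with a median of 5160 bases against 1324, and the part of length was not tested.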
